A study of Rattus norvegicus with 28 samples.

Results

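RNA in the brains of BN-Lx/Cub and SHR/OlaIpcv rats was compared for genes with a far lower mean in SHR females than in BN-Lx females. The set is named "nearly absent in SHR", although some of its genes kept counts in every SHR library. The genes were chosen by their own counts. A gene entered when its mean in the 12 BN-Lx females was at least 1 CPM (counts scaled to equal gene totals, as parts per 1000000) and its mean in the 12 SHR females was no more than 1/8 of that. Rows of 200 bases or less were left out. Of 32623 gene rows, 32 met the rule, and 13823 rows were high enough in BN-Lx females and long enough to be eligible. The 4 males were not used to choose the genes. Strain levels in females are therefore a description, and the strain difference was tested between SHR males and BN-Lx males. The spread used in that test was estimated from all 28 libraries, including the females whose values chose the genes.

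BN-Lx/Cub is an inbred strain of Brown Norway background, and SHR/OlaIpcv is an inbred spontaneously hypertensive strain that is widely used as a model of high blood pressure. The rat reference genome was built from a Brown Norway animal, so sequences or gene copies of other strains may be missing from it or differ from it. Counts here are RSEM estimates, in which a read that matches several near-identical transcripts is divided among their rows, and a fractional count is a sign of such a division.

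Each strain had 4 females at pre-estrus, 4 at estrus and 4 at post-estrus, and 2 males. The labels name no transgene and no treatment, no age was found in them, and each whole brain was taken as a separate animal. The text on extraction mentions males only, whereas the sample labels name both sexes and were followed. Nothing besides the word "biological" in the sample titles states that the libraries came from separate animals, so the p-values measure the spread between these libraries. Gene counts per library ran from 42446717 to 87923727. The files do not pair gene identifiers with names, and 0 identifiers were matched to a symbol. The functions of the genes and the brain's own marker genes were therefore not examined, and genes are described by identifier, by their rank in BN-Lx female CPM (rank 1 to rank 32) and by transcript length.

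The 32 genes fell into 2 sets, and this split was made after their values were seen. A pair of BN-Lx libraries, estrus replicate 2 and post-estrus replicate 3, stood apart from the other BN-Lx females. Without both, 22 of the genes still met the rule, 10 no longer did and 0 other genes entered. For each of the 10, these libraries were the highest of the 12 BN-Lx females, and for 0 of the 22 were they the top pair. Both libraries have the suffix b37 in the sample description, and each has a description number that no other library has. The meaning of suffix and number is not stated. Whether tissue content, handling or sequencing set these libraries apart was not tested.

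The 22 genes that met the rule with and without those libraries kept a high sum in BN-Lx. Their summed level in BN-Lx females was 470 ± 81.0 CPM (SD, n = 12, from 299 to 581), and in SHR females 12.3 ± 2.56 CPM (n = 12, from 7.29 to 15.9). Ranks 1 and 2 made up most of the BN-Lx sum, with female means of 167 and 165 CPM. Rank 1 averaged 6.13 CPM in SHR females, so the sums describe these genes more than the rest. Of the 22, 7 averaged 10 CPM or more in BN-Lx females, and the other 15 averaged less. In SHR females 19 of the 22 averaged under 1 CPM. The ratio of SHR to BN-Lx means ran from 0 to 0.119 with a median of 0.0249. In 16 of the 22, the lowest BN-Lx female lay above the highest SHR female, a separation that the rule favoured and that 0.596% of the 18134 genes tested showed. The same held for 1 of the other 10 genes (rank 26). In whole tissue, fewer cells of a type and less RNA per cell cannot be told apart.

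ENSRNOG00000011893 (rank 1, 1100 bases) ranged in BN-Lx females from 95.1 to 210 CPM with a median of 172. In SHR females it ranged from 4.48 to 9.06 CPM with a median of 5.60. Each SHR library therefore kept a low level of this row, and the female means differed 27.2-fold. ENSRNOG00000028449 (rank 2, 689 bases) ranged from 82.3 to 224 CPM in BN-Lx females with a median of 176. It had no count in 11 of the 14 SHR libraries. Among SHR females only estrus replicate 6 (0.0842 CPM) and post-estrus replicate 13 (0.0482 CPM) had any. Per transcript length these remained the leading members in the reverse order, with deposited TPM values (a measure that divides by transcript length) of 162 ± 70.0 for ENSRNOG00000028449 and 92.7 ± 34.6 for ENSRNOG00000011893 (SD, n = 12 BN-Lx females).

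The next members were lower. The gene of rank 3 (2910 bases) had a median of 36.0 CPM in BN-Lx females (20.3 to 43.3) and of 2.97 CPM in SHR females (1.14 to 5.22). At rank 4, a gene of 465 bases had a median of 19.0 CPM in BN-Lx females (12.3 to 27.9), and SHR females lay between 0 and 1.56 CPM. Rank 5 (2243 bases) had a median of 16.8 CPM in BN-Lx females (13.4 to 22.3) and of 0.981 CPM in SHR females (0.545 to 1.67). None of these 3 overlapped between the strains. Ranks 1, 3 and 5 were the 3 of the 22 that averaged above 1 CPM in SHR females.

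Of the 32 genes, 1 had no count in any of the 14 SHR libraries. It was ENSRNOG00000059663 (rank 7, 1818 bases), with 7.46 to 14.1 CPM in BN-Lx females. Its lowest BN-Lx library was at least 111-fold higher than the floor of 3 counts in the SHR library where that floor was highest (0.0671 CPM). The genes of ranks 17 and 30 had at most 3 counts in every SHR library. Rank 17 (2763 bases) collected 5 counts over all 14 SHR libraries, against 1.98 to 4.75 CPM in BN-Lx females. Such floors cover counting error only.

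**Figure D1:**
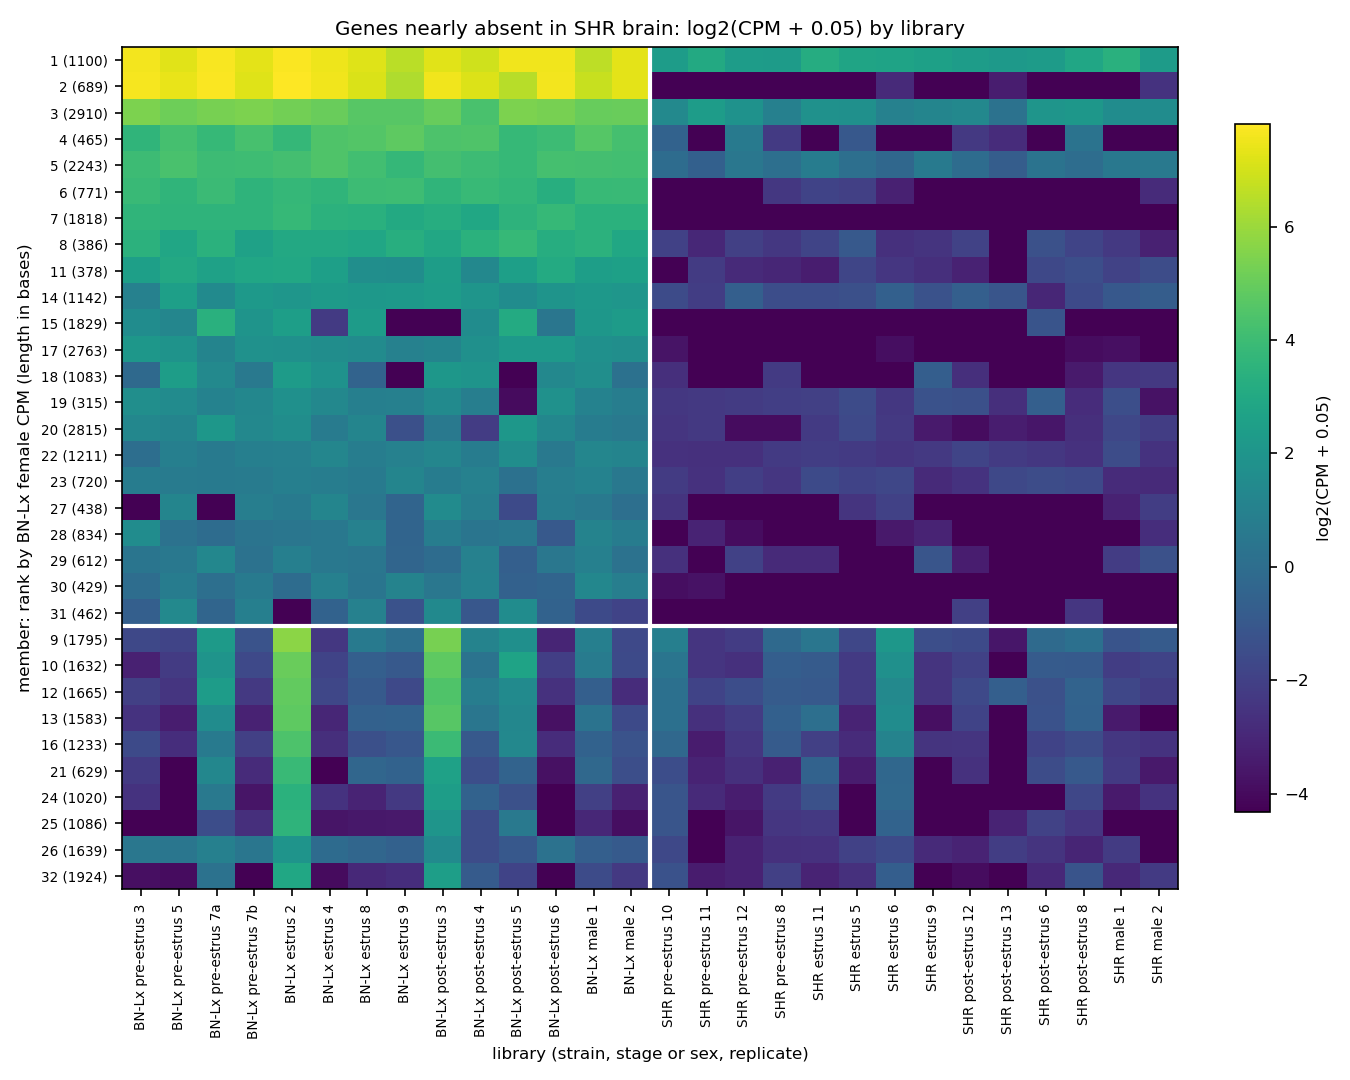
Level of each of the 32 genes (rows, by rank with length in bases) in each of the 28 libraries (columns), as log2(CPM + 0.05) by colour. Within each of the upper 22 rows most BN-Lx columns are brighter than the SHR columns, with some BN-Lx libraries at 0 in ranks 15, 18, 27 and 31, and the lower 10 rows are brightest in BN-Lx estrus replicate 2 and post-estrus replicate 3.

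Among the 22, 4 had no count in at least 1 BN-Lx female even though they averaged over 1 CPM (ranks 15, 18, 27 and 31). Rank 15 (1829 bases) ran from 0 to 10.4 CPM over the 12 BN-Lx females with a median of 2.95. Each of the 4 had fractional counts and shared its reads with other rows, as given further on. Over all 22, the coefficient of variation among BN-Lx females ran from 14.4% to 92.8% with a median of 27.8%.

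The 10 genes that rested on 2 libraries behaved differently. Their summed level was 213 CPM in BN-Lx estrus replicate 2 and 155 CPM in post-estrus replicate 3. Next came pre-estrus replicate 7a with 25.6 CPM and post-estrus replicate 5 with 20.6 CPM, and the median of the 12 BN-Lx females was 4.82 CPM. SHR females had a median of 2.18 CPM (0.816 to 18.1), so apart from a few libraries the strains overlapped. The highest SHR library for each of the 10 was estrus replicate 6. Their coefficients of variation among BN-Lx females ran from 73.3% to 230%.

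ENSRNOG00000003119 (rank 9, 1795 bases) was at 52.4 CPM in BN-Lx estrus replicate 2 and 40.3 CPM in post-estrus replicate 3. The BN-Lx female median was 1.26 CPM and the SHR female median was 0.572 CPM, with SHR estrus replicate 6 highest at 4.18 CPM. ENSRNOG00000012458 (rank 10, 1632 bases) was at 33.2 and 28.1 CPM in the same BN-Lx libraries. Its BN-Lx female median was 0.535 CPM and its SHR female median was 0.346 CPM. Without the 2 libraries the ratio of SHR to BN-Lx means of the 10 genes ran from 0.130 to 0.748, and 6 of the 10 averaged under 1 CPM in the remaining BN-Lx females. Rank 26 left the rule by the smallest margin, at 0.130. In rank 26 the strains still did not overlap. The other 9 had ratios of 0.458 or more, so outside those libraries the name "nearly absent in SHR" did not describe their female levels. Over the whole table, 75 genes reached 1 CPM in both libraries and lay at least 4-fold above every other library, and 6 of these were among the 10.

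At the threshold itself, the 4 members closest to it had ratios of 0.125, 0.119, 0.118 and 0.116, and 3 of these 4 rested on the 2 libraries. The 4 nearest genes outside had ratios of 0.125, 0.125, 0.126 and 0.127. In all 4 of those the same libraries were the highest BN-Lx females, and without them the ratios were 0.520 to 0.768.

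**Figure D2:**
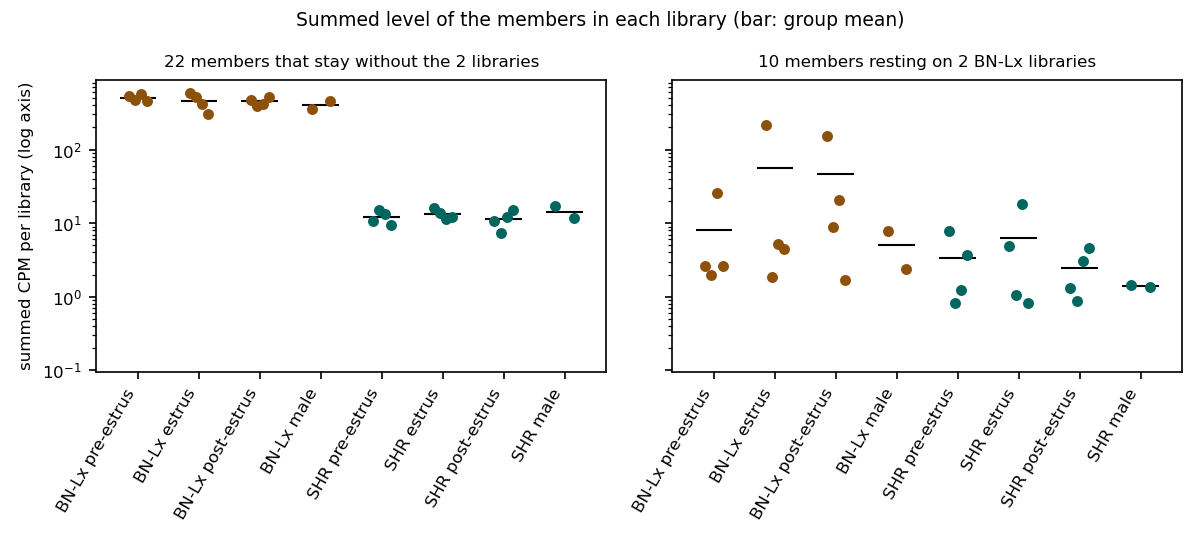
Summed CPM per library (log axis) of the 22 genes (left) and of the 10 genes (right) by strain and stage or sex, with each point a library and each bar a group mean. The 22 genes keep BN-Lx libraries at 299 CPM or more and SHR libraries at 17.04 CPM or less. The 10 genes overlap between strains apart from the BN-Lx libraries at 213, 155, 25.6 and 20.6 CPM, which lie above the highest SHR library (18.1 CPM).

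The males asked whether the strain difference was also present in animals that had no part in choosing the genes. The 22 genes summed to 356 and 449 CPM in the BN-Lx males and to 11.7 and 17.04 CPM in the SHR males. All 22 had both BN-Lx males above both SHR males, a pattern seen in 28% of the 18134 genes tested. Of the 10 other genes, 6 showed it. The SHR to BN-Lx ratio in males was at or under 1/8 for 20 of the 22, with a median of 0.0484 (0 to 0.177). For the 10 genes it was so in 2, with a median of 0.232 (0 to 0.623), and only 1 of the 10 averaged 1 CPM or more in BN-Lx males. The share of all genes at or under this ratio in males was not counted.

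In edgeR's quasi-likelihood test with Benjamini-Hochberg adjustment over 18134 genes, 15 of the 32 genes were called lower in SHR males at an adjusted p under 0.05, and 0.469% of all genes were. All 15 belonged to the 22, and 0 of the 10 were called. Both libraries that set the 10 apart entered the spread of this fit. The split of the calls is therefore tied to how the 10 were set apart. In a fit without both libraries the same 15 were called, among 168 genes in all. The fitted difference was negative for all 32. Its median was -4.43 on the log2 scale for the 22 and -2.27 for the 10, against -0.02 over all genes. The remaining 7 of the 22 had adjusted p-values of 0.215 to 0.502 with standard errors of 1.11 to 4.18, and the 10 had adjusted p-values of 0.455 to 0.919 with standard errors of 1.29 to 5.87. Standard errors of the called genes were 0.36 to 2.50. With errors this wide, a missed call does not show equal levels.

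ENSRNOG00000011893 was at 96.8 and 158 CPM in the BN-Lx males and at 10.5 and 4.96 CPM in the SHR males. The difference was -4.11 ± 0.45 (log2, SE, n = 2 each, edgeR adjusted p = 8.08e-06). It missed the threshold when the 4 males were fitted alone (-4.001, edgeR adjusted p = 0.105). ENSRNOG00000028449 was at 112 and 158 CPM in the BN-Lx males and at 0 and 0.121 CPM in the SHR males, a difference of -11.20 ± 0.81 (edgeR adjusted p = 2.82e-07). Neither gene overlapped between the strains. The fold of ENSRNOG00000028449 rests on 6.12 counts in SHR male replicate 2 and none in replicate 1, so its size is uncertain. Ranks 6 and 28 had similarly few, 4.65 and 5 counts over both SHR males. Of the 15 called genes, 4 had at most 3 counts over both SHR males, so their fitted folds are no measure of size. One of these was ENSRNOG00000059663, at 10.7 and 10.8 CPM in the BN-Lx males and with no count in either SHR male.

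Of the 10 genes, ENSRNOG00000003119 was at 1.81 and 0.266 CPM in BN-Lx males and at 0.388 and 0.514 CPM in SHR males, so the strains overlapped. Its difference of -1.31 ± 2.47 was not called (edgeR adjusted p = 0.841) and turned to 0.55 without BN-Lx male replicate 1. ENSRNOG00000012458 was at 1.63 and 0.285 CPM in BN-Lx males and at 0.184 and 0.217 CPM in SHR males, and -2.33 ± 2.62 was not called either (edgeR adjusted p = 0.734).

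The BN-Lx males and SHR male replicate 2 have the suffix b35, and SHR male replicate 1 has b37. Both BN-Lx males have the description number 200537 and both SHR males 199890, so among the males strain and this number cannot be told apart. Among b35 libraries alone, with SHR male replicate 2 as the single SHR male, all 32 genes were fitted as lower in SHR. The median difference of the 22 was -4.55, against 0 over all genes. With 1 SHR male the spread between SHR males was not measured, so no calls between males are given for this fit. No value could be had within b37, which holds no BN-Lx male. Leaving out 1 male at a time also left 1 male in a strain, so no calls are given there either. Neither the b35 fit nor any of these fits kept every call of the main fit. Without 1 male the difference of ENSRNOG00000011893 ran from -4.706 to -3.605. That of ENSRNOG00000028449 ran from -16.28 (without SHR male replicate 2) to -10.15 (without SHR male replicate 1).

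**Figure D3:**
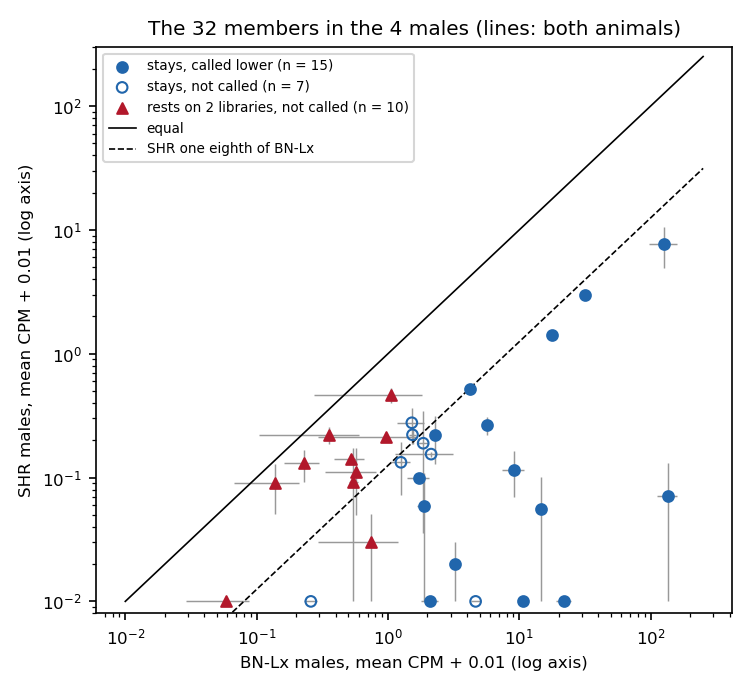
Mean CPM + 0.01 of each of the 32 genes in the 2 SHR males against the 2 BN-Lx males (log axes), with grey lines joining the values of both animals, a solid line of equality and a dashed line at 1/8. The 15 called genes (filled circles) lie at or under the dashed line, and of the 10 genes that rest on 2 libraries (triangles) 8 have a ratio above 1/8.

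Within BN-Lx, the stages of the cycle were compared because the rule used only their mean. Levels of the leading genes overlapped between stages. ENSRNOG00000011893 averaged 179 ± 25.8 CPM at pre-estrus, 159 ± 49.9 CPM at estrus and 162 ± 30.4 CPM at post-estrus (SD, n = 4 each). ENSRNOG00000028449 averaged 183 ± 30.2, 158 ± 61.0 and 154 ± 48.3 CPM. These differences were smaller than the spread within stages. In edgeR's quasi-likelihood test of any stage difference 0 of the 32 genes were called and 0 had an unadjusted p under 0.05, the smallest being 0.112. Over all genes, 0% were called and 589 had an unadjusted p under 0.05. DESeq2 called 0 of the 32 and 3 genes in all, and limma called 0.

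With b35 libraries alone, which hold 1 post-estrus library of BN-Lx, 1 of the 32 was called for stage (edgeR adjusted p = 0.0293) among 2886 genes in all. It was the gene of rank 19 (315 bases), singled out after its values were seen. It was at 0.0132 CPM in that library, post-estrus replicate 5, and at 1.76 to 3.49 CPM in the other BN-Lx females.

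Males and females of BN-Lx were also compared. The rule used no male value, but the BN-Lx female level is a part of it, so this comparison is not independent of the choice of genes. In edgeR's quasi-likelihood test 0 of the 32 genes were called and 0 had an unadjusted p under 0.05, the smallest being 0.111, against 0.0331% called over all genes and 894 genes under 0.05 unadjusted. DESeq2 and limma called 0 of the 32. Among the 22, 13 were lower in males and the median difference was -0.07 (log2, from -2.39 to 0.91). All 10 genes that rest on 2 libraries were fitted as lower in males, by -3.74 to -1.23 with standard errors of 0.93 to 2.72. The 2 libraries are both female, so this direction is tied to how the 10 were set apart.

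The members were also compared by features that the rule did not use, apart from its length limit. Their median transcript length was 1093 bases, against 2292 over the 13823 eligible genes, and it was 802.5 bases for the 22 and 1608 bases for the 10. A single transcript was annotated for 27 of the 32 (84.4%), against 69.8%, with 90.9% of the 22 and 70% of the 10. Fractional counts in 5 or more libraries, the sign of divided reads, were found in 20 of the 32 (62.5%), against 22.4% of the eligible genes. The 22 accounted for 18 of these (81.8% of the 22) and the 10 for 2 (20% of the 10, near the share of the eligible genes). The eligible genes were not matched for level, with a median of 14.9 CPM in BN-Lx females against 3.44 CPM for the members. No member matched another row count for count across the libraries.

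In contrast, 3 of the 22 had whole counts in all 28 libraries, and all 3 were called lower in SHR males (ranks 5, 17 and 22). The gene of rank 5 was at 17.999 and 17.6 CPM in BN-Lx males and at 1.39 and 1.44 CPM in SHR males, a difference of -3.67 ± 0.36 (edgeR adjusted p = 2.67e-06). Rank 17 was at 3.36 and 3.15 CPM in BN-Lx males, and the SHR males held 1 count between them (edgeR adjusted p = 1.30e-05). Rank 22 (1211 bases) was at 2.35 and 2.18 CPM in BN-Lx males and at 0.306 and 0.119 CPM in SHR males, a difference of -3.43 ± 0.45 (edgeR adjusted p = 9.08e-05). In females it ranged from 0.994 to 3.03 CPM in BN-Lx and from 0.109 to 0.235 CPM in SHR.

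For the 20 genes with divided reads, the table was searched for rows whose fractional counts completed theirs to whole numbers in every library concerned. The tolerance was 0.01 counts with 1 partner row and 0.02 with 2, and the search was added after the data were seen. Partners were found for 11 genes, 8 with 1 partner and 3 with 2, and for 9 genes none was found. A partner by this measure is a row that received the remainder of the same reads, which says nothing of where either lies in the genome.

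Among the 22, 9 genes had partners. In 5 of these the gene was only 0.951% to 22.2% of the sum of gene and partners in BN-Lx females. Its loss alone could not move such a sum 1.5-fold, so a similar sum in both strains does not tell where its reads went. In the other 4 (ranks 1, 7, 8 and 15) the gene was over 33.3% of the sum, and in 3 of the 4 the sums differed less than 1.5-fold between strains in females and in males. ENSRNOG00000011893 and its partner ENSRNOG00000048109 (862 bases) exchanged places. The partner averaged 4.39 ± 5.40 CPM in BN-Lx females and 162 ± 27.5 CPM in SHR females. The sum was 171 ± 34.98 CPM in BN-Lx females and 168 ± 28.3 CPM in SHR females, and ENSRNOG00000011893 took 97.4% of it in BN-Lx and 3.65% in SHR. In males the sum was 108 and 158 CPM in BN-Lx and 178 and 212 CPM in SHR.

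ENSRNOG00000059663 and its partner have the same length of 1818 bases and held equal values in all 14 BN-Lx libraries. In SHR the partner alone was counted, at 22.6 ± 4.53 CPM in females, and the sums were 22.3 ± 3.96 CPM in BN-Lx females and 22.6 ± 4.53 CPM in SHR females. The gene of rank 6 (771 bases) averaged 13.5 ± 2.02 CPM beside a partner at 47.3 ± 6.48 CPM in BN-Lx females. In SHR females the gene averaged 0.0520 ± 0.0859 CPM and the partner 64.9 ± 7.25 CPM. The sums were 60.7 ± 6.84 and 65.0 ± 7.25 CPM, and the gene was 22.2% of the sum in BN-Lx females.

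The gene of rank 18 (1083 bases) had 2 partners. The longer one (1964 bases) averaged 57.9 ± 7.66 CPM in BN-Lx females and 41.0 ± 2.81 CPM in SHR females. The other, ENSRNOG00000056398 (1116 bases), averaged 0.0346 ± 0.0568 CPM in BN-Lx females and 16.7 ± 1.53 CPM in SHR females. The 3 rows summed to 60.4 ± 8.00 and 57.8 ± 3.27 CPM, and the gene of rank 18 was 4.14% of the sum in BN-Lx females. For the gene of rank 15, which ran from 0 to 10.4 CPM among BN-Lx females, the sum with its partner was 9.85 ± 1.10 CPM in BN-Lx females (8.69 to 11.7) and 8.63 ± 0.94 CPM in SHR females. The partner sum thus varied less among BN-Lx females than the gene did by itself (3.59 ± 3.33 CPM).

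An exception was the gene of rank 8 (386 bases). With its partner of 210 bases it summed to 9.13 ± 2.20 CPM in BN-Lx females and 0.266 ± 0.134 CPM in SHR females, and these did not overlap. The 2 genes with partners among the 10 had sum ratios of 0.109 and 0.133 in females and 0.187 and 0.478 in males.

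**Figure D4:**
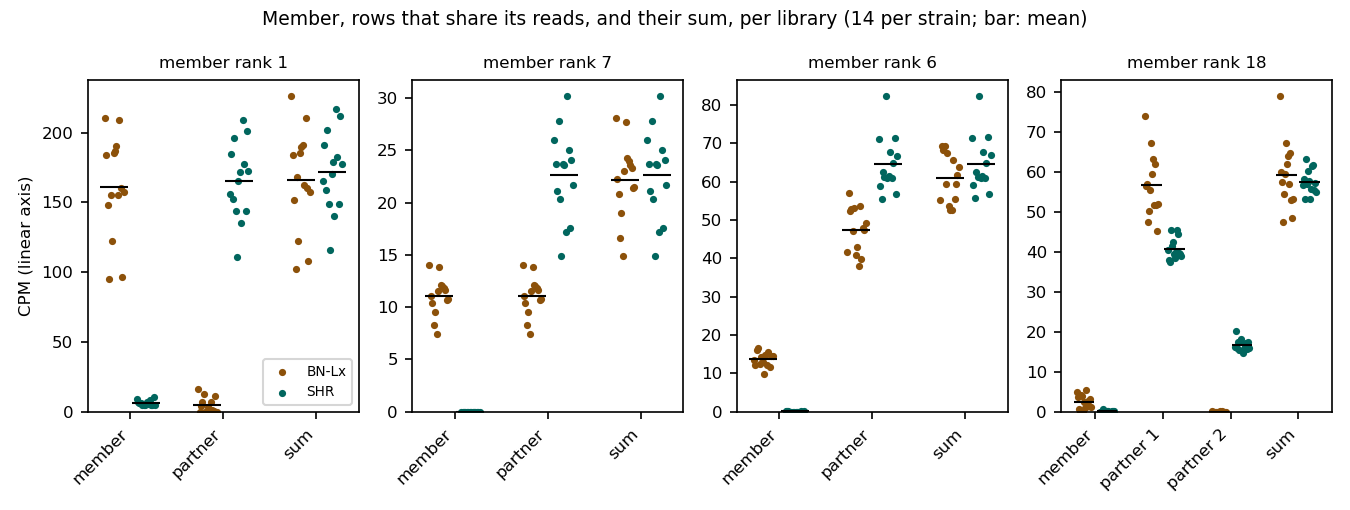
CPM (linear axes) of 4 members, of the rows that share their reads and of their sum in the 14 libraries of each strain, with bars at the means. For ranks 1, 6 and 7 the member is high in BN-Lx and near 0 in SHR. Rank 18 is low in both strains, with means of 2.50 CPM in BN-Lx females and 0.0805 CPM in SHR females, and its strains overlap. In all 4 panels the sums of the strains overlap, and ranks 6 and 18 are only 22.2% and 4.14% of theirs in BN-Lx females.

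Of the 14 partner rows, 13 were high enough to be tested in males. In edgeR's quasi-likelihood test 2 of them were called higher in SHR males, as were 0.331% of all genes, and 0 were called lower. One of these was ENSRNOG00000056398, with no count in either BN-Lx male and 16.6 ± 1.13 CPM in SHR males (SD, n = 2, edgeR adjusted p = 2.68e-06). ENSRNOG00000048109 was not called (4.79 ± 1.95, log2, SE, edgeR adjusted p = 0.415), with BN-Lx males at 0 and 11.4 CPM and SHR males at 173 and 201 CPM. In females, 3 partner rows were among the 22 genes that met the mirrored rule, present in SHR females and at no more than 1/8 in BN-Lx females.

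When the counts of partners were added to those of the member before the test in males, 11 of the 15 calls were kept, among 136 genes called in all. Called genes without partners had unchanged counts here, so their kept calls say nothing about divided reads. Of the 5 called genes that had partners, 1 was still called, the gene of rank 8 (-5.50 ± 0.68, edgeR adjusted p = 6.06e-05). The sum with ENSRNOG00000011893 differed by 0.56 ± 0.35 (edgeR adjusted p = 0.572) and the sum with ENSRNOG00000059663 by 0.08 ± 0.32 (edgeR adjusted p = 0.931). The calls lost were those of ranks 1, 6, 7 and 30. For ranks 6 and 30 the gene was 22.2% and 0.951% of its sum in BN-Lx females. That is too little for its loss alone to move the sum 1.5-fold, so these lost calls do not tell where the reads went. For the 9 genes with divided reads and no partner found, ENSRNOG00000028449 among them, no such sum could be made, and whether their reads went to other rows in SHR was not tested.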

How the data were processed

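Whole-brain total RNA was depleted of ribosomal RNA and sequenced from stranded libraries, per the labels' protocols. cutadapt and RSEM were used, per the submitters' processing notes. For versions, aligner, build and annotation: not given in the sources used here. RSEM expected counts per gene, without normalization, were deposited by the authors with TPM values and transcript lengths per sample. Of the deposited expected counts, 88.1% were whole numbers. The table of the series and the per-sample files differed by at most 0.5 counts.

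The 92 spike-in rows were left out. CPM is the expected count divided by the gene counts of the library and multiplied by 1000000. For tests, counts were rounded, filterByExpr (minimum 10 counts, 8 groups) kept 18134 genes, and TMM scaled the libraries. A single robust quasi-likelihood fit of edgeR 4.0.16 in R 4.3.3 took all 28 libraries, with a term for group and a term for the suffix, leaving 19 residual degrees of freedom. Benjamini-Hochberg adjustment ran over all kept genes of a comparison, and genes were called under 0.05. Standard errors are approximate, being computed from F. DESeq2 1.42.0 and limma 3.58.1 (voom with quality weights) were alternatives. The calculation was tested on simulated data.

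The genes, gene lists and tests were chosen with earlier results of these data known. The gene lists and cell type markers hold symbols and matched 0 rows, so none was tested. Without symbols, at most 2 genes in each direction were named by identifier in each comparison. They were those with the highest BN-Lx level within a set. The single gene with no SHR count and the partner rows were named besides these, after their values were seen. The split by the libraries that stood apart, the search for partner rows, the summed counts and the fits of b35 or b37 libraries alone were chosen after seeing the data. Columns without a known sample numbered 0.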

Additional observations from a re-analysis of the deposited data

Results flagged for a closer look

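Among groups of 4 libraries, a library was picked out when its gap to the nearest other library, divided by the range of the group, exceeded the 95% critical value of Dixon's test. Of 50 groups examined, 16 were picked out, and chance alone picks out about 1 in 20. The number cannot be read against that share: in 5 cases all other libraries of the group were at 0, and 5 concern the libraries by which the 10 genes were set apart.

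Most concerned the 10 genes that rest on 2 libraries. BN-Lx estrus replicate 2 was far above the other estrus libraries for ENSRNOG00000003119 (52.4 CPM against 0.148 to 1.496), for ENSRNOG00000012458 (33.2 CPM against 0.223 to 0.595) and for the sum of the 10 genes (213 CPM against 1.85 to 5.20). BN-Lx post-estrus replicate 3 stood apart for ENSRNOG00000003119 (40.3 CPM against 0.0707 to 3.26) and for the sum (155 CPM against 1.67 to 20.6). BN-Lx pre-estrus replicate 7a stood apart at lower levels, with 4.88 CPM of ENSRNOG00000003119 (others 0.231 to 0.379), 3.85 CPM of ENSRNOG00000012458 (others 0.0596 to 0.273) and 25.6 CPM in sum (others 2.00 to 2.60). SHR estrus replicate 6 had 3.38 CPM of ENSRNOG00000012458 against 0.129 to 0.518 in the other SHR estrus libraries.

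Among the 22 genes, ENSRNOG00000011893 was at 8.23 CPM in SHR pre-estrus replicate 11 and at 5.05 to 5.25 CPM in the other pre-estrus libraries. The gene of rank 5 was at 19.8 CPM in BN-Lx pre-estrus replicate 5 and at 15.9 to 16.2 CPM in the others. The remaining cases were single SHR libraries with a few counts where the other libraries of the group had none. For ENSRNOG00000028449 these were estrus replicate 6 (0.0842 CPM) and post-estrus replicate 13 (0.0482 CPM). For the gene of rank 17 they were estrus replicate 6 (0.0188 CPM), post-estrus replicate 8 (0.0169 CPM) and pre-estrus replicate 10 (0.0288 CPM).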

How the results depend on the processing

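The number of genes that met the rule was 32. It was 51 at a CPM minimum of 0.5, 21 at a minimum of 2, 97 at a ratio of 1/4, 17 at a ratio of 1/16 and 62 in b37 females alone. With TMM-scaled library sizes it was 45. In b35 females alone it was 22, of which 18 were among the 32. The highest gene of a library held 13.2% to 35.9% of its gene counts, the total by which CPM divides. Leaving out 1 female at a time gave 23 (without BN-Lx estrus replicate 2) to 52 genes (without SHR estrus replicate 6). The number called lower in SHR males was 15, and it was 17 with the 4 males alone and 16 by DESeq2. Of the 15, 14 were also called with the 4 males alone. Over all genes, 145 of 18134 were called in either direction in the main fit. The numbers were 164 of 16418 with the 4 males alone and 316 of 18134 by DESeq2. Stage calls were 0 in every fit except b35 libraries alone, with 1, and 0 without any 1 library. Calls between the sexes were 0 in every fit run. The ratio in males was at or under 1/8 for 22 genes, for 21 to 23 without 1 male and for 13 when reads were summed with partner rows. For genes that are a small part of their sum, loss of the gene alone could not bring the sum to 1/8. Such sums turned the male difference of ENSRNOG00000011893 to 0.56 and of ENSRNOG00000059663 to 0.08. That of ENSRNOG00000003119 ran from -2.09 to 0.55 without 1 male, the last without BN-Lx male replicate 1. Replicate numbers did not pair the libraries (correlations of -0.28 to 0.0926). With the replicate block 12 of the 32 genes were called in males, among 51 genes called in all. A count of 0 in an SHR library allows up to 0.0671 CPM where that floor of 3 counts was highest.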
